A study of Mus musculus with 19 samples.

Results

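The comparison set brain endothelial cells of 4 mice after 7 days of chronic social defeat (CSD7, animals 9, 16, 17 and 25) against those of 4 home cage mice (HC, animals 1, 2, 5 and 6), 8 of the 19 samples of the study. Samples were assigned by their labels for 7 days of stress and for home cage housing, and the same 4 CSD7 samples were also set against HC animals 5 and 6 alone. The study asked how the transcripts of endothelial cells change as mice accumulate defeats, and its other 11 samples come from mice after 1 day (CSD1) or 14 days (CSD14) of defeat and from mice given a rest in the home cage once defeats had ended (CSDrec). Each sample is 1 Affymetrix Clariom D mouse array hybridized with RNA of the sorted cells of 1 brain.

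CSD7 mice were male wild-type C57BL/6N mice, 8 to 10 weeks old at the start, that met an aggressive CD-1 male once a day (10 minutes by the labels, 5 minutes by the methods) and otherwise lived beside it behind a partition. HC mice were males of the same strain and age, housed 2 to a cage with a perforated partition between them and never defeated. The CSD7 mice on the arrays had been chosen by their social interaction and light:dark test scores as susceptible, so that CSD7 stands for susceptible mice and not for every defeated mouse. Collection followed the last defeat by 16 hours. Brains were perfused with saline, freed of cerebellum, brainstem and meninges and digested, and live nucleated CD31+ cells were sorted, so the gate takes any CD31+ cell and not endothelium alone. HC animal 5 is a home cage animal by its title and source while 1 other field of its label reads stressed, and it was kept as HC.

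Endothelial cells of the brain line its capillaries, arteries and veins and form the blood-brain barrier, sealing the vessel wall with claudin-5 and other junction proteins and carrying glucose, amino acids and lipids across it. They sense blood-borne stress hormones directly, since they express the glucocorticoid receptor, and they answer flow, cytokines and hormones with immediate early genes such as Fos, Dusp1 and Ccn1, whose transcripts appear within minutes and are short-lived. They also hold machinery of hemostasis, such as von Willebrand factor and thrombomodulin, and the enzymes that set vascular tone.

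The deposited values are log2 intensities, and 65956 rows of the array that are not control rows were tested. The sort held endothelial cells in every sample: Pecam1, the gene of CD31, lay between 9.33 and 9.88, and Cldn5, the claudin of the barrier, between 10.19 and 11.12, far above the log2 3.10 that 95% of 1759 olfactory, vomeronasal and taste receptor rows did not pass. That value is called the receptor level here, and 30259 rows had a mean above it. HC animals 1 and 2 stood apart from all others. The area under the curve by which positive controls exceed negative ones was 0.845 and 0.830 for them, while no other array was under 0.891, and their rows above the receptor level had a median of 4.01 and 4.00, where the remaining arrays had 4.39 to 4.50. Bright rows were thus dimmer and dim rows brighter in these HC animals. No 2 arrays held the same values: the highest correlation between any pair was 0.9968.

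In CSD7 against HC, 5964 rows were higher (9.04% of those tested) and 1290 were lower (1.96%) at an adjusted p under 0.05 (limma, Benjamini-Hochberg). At least 1.3-fold, the size used in the study, the calls were 4776 higher (7.24%) and 668 lower (1.01%), and at least 2-fold 137 higher and 16 lower. Of the rows called higher 97.5% lay above the receptor level, and of those called lower 96.5% lay under it. The calls rested on HC animals 1 and 2. Without HC animal 1 there were 8 higher and 1 lower, without HC animal 2 there were 0 of either (9889 higher and 3778 lower at an unadjusted p under 0.05), while without HC animal 5 there were 10742 higher and 4809 lower, and without HC animal 6 there were 12778 and 5700. Leaving out CSD7 animals 9, 16, 17 or 25 gave 3519, 1098, 1218 or 4625 higher and 421, 151, 67 or 563 lower. Against HC animals 5 and 6 alone 3 rows were higher and 1 was lower. Rows above the receptor level had a median difference of 0.22 from HC and of 0.06 from HC animals 5 and 6, so both values are given for each gene below, and a gene or list is read beside these medians. A fit of CSD7 and HC alone called 0 rows (8854 higher and 2533 lower unadjusted), and quantile normalization repeated over the tested rows left 96 higher and 52 lower. Of the 26 lists described below, each had 0 members called without HC animal 2 and at most 3 without HC animal 1, so the counts of members called hold for the 4 HC animals together. CSD7 shares the 4 HC animals with the comparisons of the other defeated groups, which are not set beside it here.

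**Figure D1:**
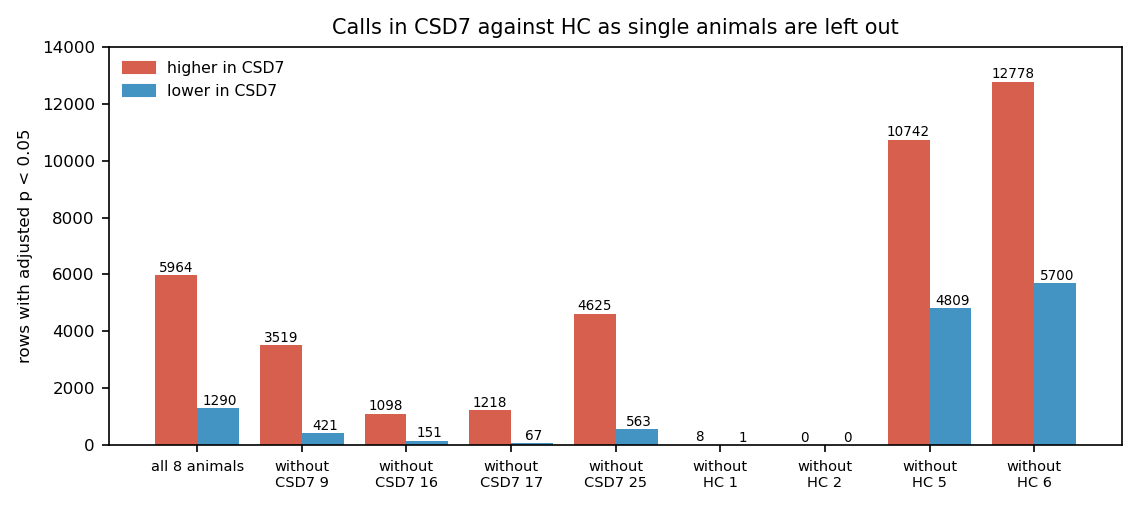
Number of array rows with an adjusted p under 0.05 in CSD7 against HC (vertical axis), higher (red) and lower (blue) in CSD7, with all 8 animals and with 1 animal left out at a time. The bars all but vanish without HC animal 1 (8 higher, 1 lower) or HC animal 2 (0 and 0), and they are tallest without HC animal 6 (12778 higher, 5700 lower).

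Most immediate early genes lay above home cage levels, by their differences, whichever HC animals were used. Few or none of them were called without HC animal 1 or without HC animal 2. Of 37 measured genes of the list 23 rose and 0 fell, against 9.04% of all rows (19.2% of rows above the receptor level), with a median difference of 0.65. Against HC animals 5 and 6 the median was 0.55, 34 of 37 lay above, and 24 had an unadjusted p under 0.05, against 6.02% of all rows above and 3.28% below. The mean level of the list was 6.77, 6.84, 6.87 and 6.66 in CSD7 animals 9, 16, 17 and 25, and 6.13, 6.02, 6.15 and 6.30 in HC animals 1, 2, 5 and 6. Without HC animal 1, 3 of the 37 were called (median 0.64), without HC animal 2, 0 (median 0.59), and under repeated quantile normalization 1 (median 0.29). By list mean all 4 CSD7 animals lay above all 4 HC animals, with little spread among them, and in 25 of the 37 genes every CSD7 animal was above every HC animal, as in 7.47% of all rows (2.91% had every CSD7 animal below). In sorted cell samples such as these, more cells with a transcript and more transcript per cell cannot be told apart. The levels are those of cells after warm enzymatic digestion and sorting. What part that handling had in them was not tested.

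Ccn2 encodes connective tissue growth factor, a secreted matrix protein and a target of the transcriptional coactivator YAP. It had the lowest p of the list in CSD7 against HC, with levels of 8.08, 7.70, 8.26 and 7.84 in CSD7 animals and 6.62, 6.51, 6.85 and 6.63 in HC animals 1, 2, 5 and 6. The difference was 1.32 ± 0.15 (SE, adjusted p = 0.0067), and 1.23 against HC animals 5 and 6. The 4 HC animals lay close together here, HC animals 1 and 2 among them. Ccn1, its relative that encodes CYR61, stood at 9.11, 8.69, 9.13 and 9.28 in CSD7 and at 7.98, 7.87, 7.42 and 8.46 in HC, a difference of 1.12 ± 0.21 (adjusted p = 0.015) that was also 1.12 without HC animals 1 and 2.

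Dusp1, a phosphatase that switches off MAP kinases, was the only immediate early gene called against HC animals 5 and 6 alone. Its level was 9.99, 10.16, 10.39 and 10.02 in CSD7, and 9.58, 9.18, 8.94 and 8.85 in HC. HC animals 1 and 2 were the higher of the HC animals, and the difference of 1.00 ± 0.17 (adjusted p = 0.015) grew to 1.25 without them (adjusted p = 0.049). Btg2, an antiproliferative early gene, had 7.35, 7.29, 7.47 and 6.98 in CSD7 and 6.27, 6.18, 5.85 and 6.34 in HC, with a difference of 1.11 ± 0.16 (adjusted p = 0.015) and 1.18 against HC animals 5 and 6. Fos, Zfp36, Jun and Klf6 were, like Dusp1, higher in HC animals 1 and 2 than in HC animals 5 and 6: their differences were 1.07, 1.04, 0.83 and 0.66 against all HC, each called, and 1.36, 1.16, 1.00 and 0.85 against HC animals 5 and 6. Zfp36 encodes a protein that destabilizes AU-rich messages, and Klf6 is a Krüppel-like factor.

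Gadd45g, a growth arrest gene, had 7.32, 7.66, 7.41 and 7.10 in CSD7 and 5.94, 5.60, 6.33 and 6.66 in HC. Its difference of 1.24 ± 0.23 (adjusted p = 0.015) was 0.87 against HC animals 5 and 6. Egr1, Atf3, Fosb, Ier2 and Nr4a1 were called as well, with differences of 0.94, 0.94, 0.93, 0.88 and 0.73. Not every early gene took part: Arc and Npas4, known from active neurons, differed by 0.13 and 0.07, and Ier5 and Fosl1 by 0.00 and 0.12, none of them called.

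The promoters of 4 of these genes are shown because the members stood above home cage levels together. They are the 4 with the lowest p in CSD7 against HC that have an entry in the RefSeq promoter table (build GRCm38.p6), which holds 250 bases before and 50 after each start. Ccn2 and Nfkbiz have none. Capitals mark a cyclic AMP response element (TGACGTCA) in Btg2 and Dusp1 and a TEAD motif (GGAATG, here on the other strand) in Ccn1. Gadd45g held none of the motifs searched.
Btg2, chr1:134079106-134079405, reverse strand: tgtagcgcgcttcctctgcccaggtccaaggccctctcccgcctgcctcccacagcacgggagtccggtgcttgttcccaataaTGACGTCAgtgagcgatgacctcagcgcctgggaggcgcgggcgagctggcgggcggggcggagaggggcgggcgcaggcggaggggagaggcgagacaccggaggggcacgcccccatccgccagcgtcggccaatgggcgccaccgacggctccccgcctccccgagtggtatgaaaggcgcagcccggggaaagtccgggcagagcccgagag
Dusp1, chr17:26508423-26508722, reverse strand: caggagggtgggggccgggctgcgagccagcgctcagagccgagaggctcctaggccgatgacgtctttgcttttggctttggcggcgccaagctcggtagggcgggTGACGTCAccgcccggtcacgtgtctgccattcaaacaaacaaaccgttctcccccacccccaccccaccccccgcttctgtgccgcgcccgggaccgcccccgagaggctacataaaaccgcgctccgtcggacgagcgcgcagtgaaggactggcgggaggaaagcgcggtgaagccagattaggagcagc
Gadd45g, chr13:51846425-51846724, forward strand: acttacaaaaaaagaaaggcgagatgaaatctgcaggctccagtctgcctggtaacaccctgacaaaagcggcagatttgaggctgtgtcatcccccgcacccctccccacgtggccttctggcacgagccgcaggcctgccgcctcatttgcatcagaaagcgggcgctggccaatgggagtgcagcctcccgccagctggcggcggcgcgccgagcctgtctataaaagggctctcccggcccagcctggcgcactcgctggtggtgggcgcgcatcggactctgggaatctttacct
Ccn1, chr3:145649936-145650235, reverse strand: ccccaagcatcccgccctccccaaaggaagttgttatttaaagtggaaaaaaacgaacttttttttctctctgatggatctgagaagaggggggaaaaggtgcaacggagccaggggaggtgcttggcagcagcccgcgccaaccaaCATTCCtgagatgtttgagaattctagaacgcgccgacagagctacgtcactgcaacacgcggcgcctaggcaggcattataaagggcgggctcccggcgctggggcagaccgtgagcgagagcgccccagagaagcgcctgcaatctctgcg
The cyclic AMP element lies 166 bases before the start in Btg2 and 143 before it in Dusp1, and the TEAD motif 103 before it in Ccn1. Motifs were sought as exact letters on both strands in 29 list members with a promoter and in all 32851 promoters of the table. The cyclic AMP element was in 2 of the 29 (6.9%), against 1.79% of all promoters. The TEAD motif was in 3 (10.3%), against 14.7%, the AP-1 motif TGANTCA in 0, against 7.81%, the consensus of the glucocorticoid response element in 1 (3.45%), against 0.475%, and the CArG box of serum response factor in 1 (3.45%), against 1.63%. A match is a stretch of letters and no evidence of binding, and none of these motifs overlaps another in the 4 promoters.

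Glucocorticoid response genes lay above home cage levels too, 16 hours after the last defeat. Of 26 genes, Dusp1 among them, 20 rose and 0 fell, with a median difference of 0.74, and all 26 lay above HC animals 5 and 6 with a median of 0.60 and 20 at an unadjusted p under 0.05. The list averaged 6.95, 6.90, 7.07 and 6.82 in CSD7 animals and 6.12, 5.98, 6.30 and 6.37 in HC animals. The lowest CSD7 animal, 25, thus exceeded the highest HC animal, and in 20 of 26 genes every CSD7 animal was above every HC animal. These counts stand beside 9.04% of all rows called higher (19.2% above the receptor level) and 7.47% with every CSD7 animal above. The count at an unadjusted p stands beside 3177 of the 30259 rows above the receptor level, fitted alone. Without HC animal 1, 1 of the 26 was called (median 0.72), without HC animal 2, 0 (median 0.70), and under repeated quantile normalization 0 (median 0.49).

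Angptl4, which inhibits lipoprotein lipase, had levels of 6.62, 6.54, 7.16 and 6.36 in CSD7 and of 5.47, 5.06, 5.37 and 5.24 in HC. The difference of 1.38 ± 0.28 (adjusted p = 0.016) was of like size against HC animals 5 and 6, at 1.36, but not called there (adjusted p = 0.26). Mt2, a metallothionein that binds zinc and copper, had 11.49, 10.93, 10.85 and 10.40 in CSD7 and 9.36, 9.51, 9.90 and 10.22 in HC (difference 1.17 ± 0.25, adjusted p = 0.017, and 0.86 against HC animals 5 and 6). CSD7 animal 25 lay only a little above HC animal 6. Mt1 differed by 0.88 and by 0.71 against HC animals 5 and 6.

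Cebpd, a transcription factor of the acute response, had 5.51, 5.80, 5.46 and 5.23 in CSD7 and 4.36, 4.26, 4.76 and 4.48 in HC, a difference of 1.03 ± 0.23 (adjusted p = 0.019). Pdk4, the kinase that shuts pyruvate dehydrogenase, had 5.82, 5.87, 5.96 and 5.85 in CSD7 against 4.25, 4.26, 5.12 and 5.32 in HC, and its difference of 1.14 came down to 0.66 against HC animals 5 and 6. Sgk1, a kinase that glucocorticoids induce, differed by 0.74 from all HC and by 0.81 from HC animals 5 and 6. Tsc22d3 (GILZ), Per1 and Fkbp5, classical targets of the receptor, differed by 0.49, 0.50 and 0.76 and were called. Zbtb16, another target, was not called (0.17).

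Depp1, a FOXO target that acts in autophagy, is in neither list and was among the 10 largest differences from HC animals 5 and 6 among called genes without overlap. It had 7.81, 8.23, 8.64 and 7.32 in CSD7 and 7.12, 5.98, 6.24 and 5.95 in HC (difference 1.68 ± 0.45, adjusted p = 0.031, and 1.91 against HC animals 5 and 6). Only HC animal 1 came near the CSD7 animals.

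**Figure D2:**
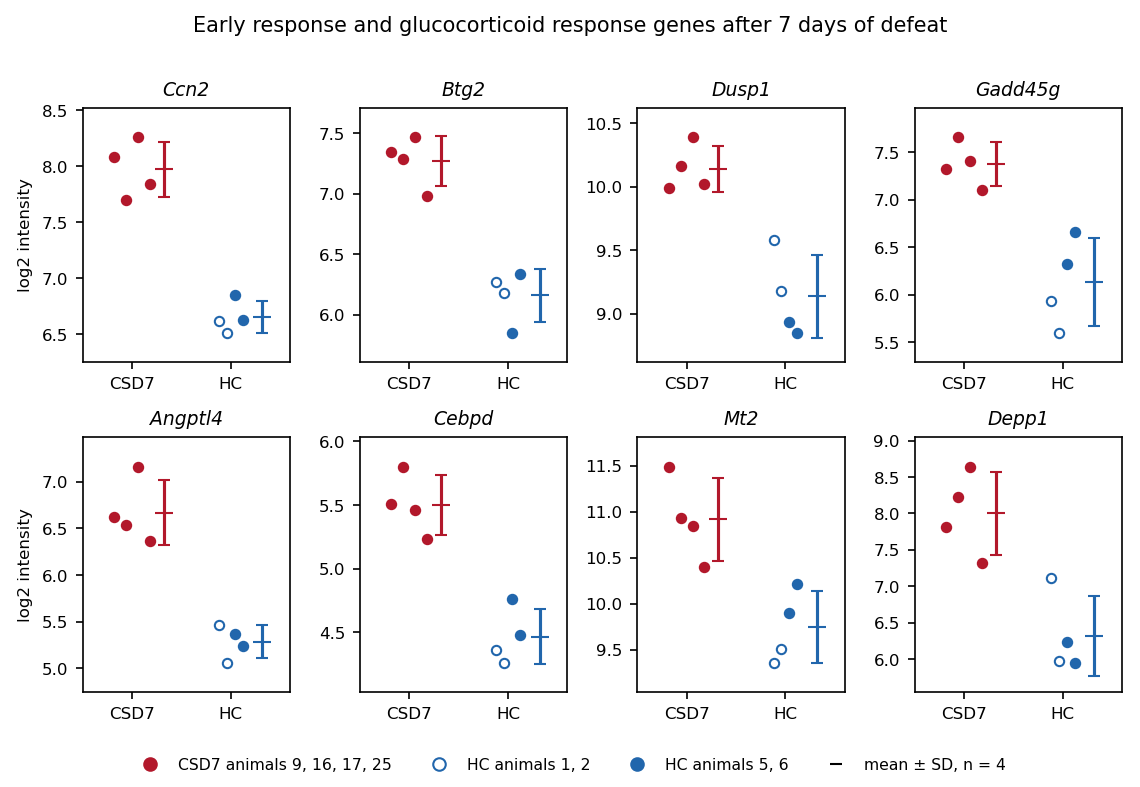
Log2 intensity (vertical axes, each with its own range) of 4 immediate early genes (Ccn2, Btg2, Dusp1, Gadd45g), 3 glucocorticoid response genes (Angptl4, Cebpd, Mt2) and Depp1 in CSD7 (red) and HC animals (blue; HC 1 and 2 open), 1 point per animal, with mean ± SD of 4 animals. The CSD7 points lie above all HC points in each panel, and for Dusp1 the open points of HC animals 1 and 2 are the higher HC ones (9.58 and 9.18).

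The largest rises of all belonged in part to genes of cells other than endothelium. The 10 named genes with the largest differences among those called whose groups did not overlap were Ch25h, Ttr, C1qb, Slc6a11, Slc1a2, Ctss, P2ry13, Csf1r, Lbp and Gpm6a, with differences between 1.74 and 2.37. C1qb, Ctss, P2ry13 and Csf1r mark microglia, Slc6a11 and Slc1a2 are transporters of astrocytes, Gpm6a is a membrane protein of neurons and glia, and Ttr is the transthyretin of the choroid plexus.

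Of 21 microglial markers 17 rose and 0 fell, with a median difference of 0.96, and of 0.85 against HC animals 5 and 6. This count and those of the marker lists below stand beside 19.2% of rows above the receptor level called higher. The median was 0.93 without HC animal 1 and 0.96 without HC animal 2, but 0 of 21 were called in either case. The CSD7 animals differed among themselves. The list mean stood at 5.76, 5.24, 5.07 and 4.46 in CSD7 animals 9, 16, 17 and 25 and lay between 3.99 and 4.15 in the 4 HC animals. CSD7 animal 9 was the highest and animal 25 the lowest CSD7 animal in all 21 genes. C1qb, a chain of complement C1q, had 8.58, 7.60, 7.04 and 5.94 in CSD7 and 4.92, 4.89, 5.22 and 4.92 in HC (difference 2.30 ± 0.52, adjusted p = 0.019). Ctss, a cathepsin of phagocytes, had 7.77, 6.95, 6.80 and 5.68 in CSD7 and 5.03, 4.68, 4.83 and 4.97 in HC, while Cx3cr1, the fractalkine receptor, had 6.71, 6.10, 5.53 and 4.80 in CSD7 and 4.23, 4.15, 4.30 and 4.38 in HC. Even animal 25 exceeded every HC animal in these genes, though by little in Cx3cr1. Tmem119 and P2ry12, which mark microglia most narrowly, had smaller differences of 0.52 and 0.75, both called. In P2ry12 animal 25 had 3.90 and lay under HC animals 1 and 5 (4.06 and 4.00). Every CSD7 animal was above every HC animal in 14 of the 21 genes. Without CSD7 animal 9 the median of the list was 0.66 and 8 of 21 were called.

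Of 15 astrocyte markers 7 rose and 0 fell, with a median difference of 1.00, and of 0.65 against HC animals 5 and 6. CSD7 animal 9 carried much of this: the mean of the list was 6.23 in animal 9, 4.95 in 16, 5.01 in 17 and 4.35 in 25, and lay between 4.00 and 4.32 in HC. Slc1a2, the glutamate transporter GLT-1, had 8.38, 5.21, 5.81 and 4.58 in CSD7 and 3.89, 3.98, 4.28 and 4.07 in HC (difference 1.94 ± 0.57, adjusted p = 0.040). Animal 9 stood far above the other CSD7 animals. Aqp4, the water channel of astrocyte endfeet, had 4.60, 4.26, 4.29 and 3.75 in CSD7 and 3.44, 3.51, 3.71 and 3.86 in HC, so animal 25 lay within HC. Gfap was not called (0.62). Without CSD7 animal 9, 2 of 15 markers were called and the median was 0.61. The astrocyte list also stood apart from the other defeated groups more than any of the 52 lists did, by its median: 6 of its 15 genes were above the mean of CSD1, CSD14 and CSDrec at an unadjusted p under 0.05, against 0.717% of all rows, with a median difference of 0.46, and all 15 were highest in animal 9 among the CSD7 animals.

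Choroid plexus and ependymal markers were likewise lowest in CSD7 animal 25, in 10 of 11 genes. Their mean was 5.43, 4.90, 5.04 and 4.04 in CSD7 animals and between 3.92 and 4.09 in HC animals, and 1 of 11 was called, Ttr, with 9.96, 9.89, 10.21 and 8.0 in CSD7 and 7.86, 6.60, 7.48 and 6.71 in HC (difference 2.35 ± 0.68, adjusted p = 0.037, and 2.42 against HC animals 5 and 6). Animal 25 was close to HC animal 1. Of 11 markers of border macrophages 3 rose (Stab1 0.66, Folr2 0.63, Maf 0.58), and the list mean was 4.37 in CSD7 animal 9, 3.63, 3.62 and 3.49 in the other CSD7 animals, and 3.26 to 3.50 in HC animals. Mrc1, the mannose receptor that defines these cells, had 4.81 in animal 9 and 2.71 to 3.04 in the other CSD7 animals, against 2.69 to 2.86 in HC. Neuronal markers had a median difference of 0.22, that of all rows above the receptor level; Snap25 had 6.85 in animal 9 and 3.36 to 3.77 in the other CSD7 animals, against 3.37 to 3.59 in HC. The 1 neuronal marker called was Stmn2 (1.31), which is also a marker of arterial endothelium. Lymphocyte and neutrophil lists had 0 of 10 and 0 of 9 called, and their means lay between 2.93 and 3.25 in CSD7 animals and between 2.94 and 3.51 in HC animals. What part the share of such cells in each sample had in the results was not tested.

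Pericyte markers lay higher or lower with the HC animals used. Pericytes wrap capillaries and can stay attached to endothelial cells in a digest. Against all HC animals 0 of 11 were called and the median difference was 0.08, but against HC animals 5 and 6 the median was -0.69 and all 11 lay lower at an unadjusted p under 0.05, with 0 called after adjustment. At that p 558 of the 30259 rows above the receptor level, fitted alone, were lower. The list mean stood at 6.20 in CSD7 animal 9 and 5.17, 5.00 and 5.14 in animals 16, 17 and 25, against 4.29 and 4.30 in HC animals 1 and 2 and 6.47 and 6.27 in HC animals 5 and 6. The HC animals thus lay on both sides of the CSD7 animals. Atp13a5, a brain pericyte ATPase, had 6.45, 4.80, 4.75 and 5.22 in CSD7, against 3.95 and 3.81 in HC animals 1 and 2 and 7.27 and 7.10 in HC animals 5 and 6. Pdgfrb, the receptor that holds pericytes to the vessel, had 6.88, 5.48, 5.26 and 5.53 in CSD7 and 4.30, 4.26, 7.34 and 6.99 in HC. Kcnj8, a potassium channel of mural cells, had 5.96, 4.67, 4.44 and 4.43 in CSD7 and 4.07, 3.77, 6.08 and 5.94 in HC. Rgs5, Notch3 and Cspg4, further mural genes, differed by 0.15, 0.22 and 0.17 from all HC and by -0.67, -0.54 and -0.30 from HC animals 5 and 6. Which direction these genes took depended on the HC animals used, and CSD7 animal 9 lay near HC animals 5 and 6.

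Endothelial identity genes moved little. Of 25 genes 4 rose (Slc2a1, Eng, Tie1, Robo4) and the median difference was 0.23, no more than that of rows above the receptor level at 0.22. The list mean stood at 9.67, 9.91, 9.95 and 10.00 in CSD7 animals and 9.56, 9.46, 9.71 and 9.80 in HC animals. Animal 9, the highest CSD7 animal by the means of the microglial, astrocyte, choroid plexus, border macrophage and pericyte lists, was the lowest here, and HC animals 5 and 6 lay above it. Slc2a1, the glucose transporter GLUT1 of the barrier, had 12.41, 12.37, 12.48 and 12.51 in CSD7 and 11.99, 11.91, 12.04 and 12.15 in HC, a difference of 0.42 ± 0.08 (adjusted p = 0.015) and of 0.35 against HC animals 5 and 6. Kdr and Tek, the receptors of VEGF and angiopoietins, differed by 0.19 and 0.23 and Cldn5 by 0.40, and Pltp and Bsg, barrier genes of lipid transfer and of basigin, by 0.18 and 0.21, none of them called.

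**Figure D3:**
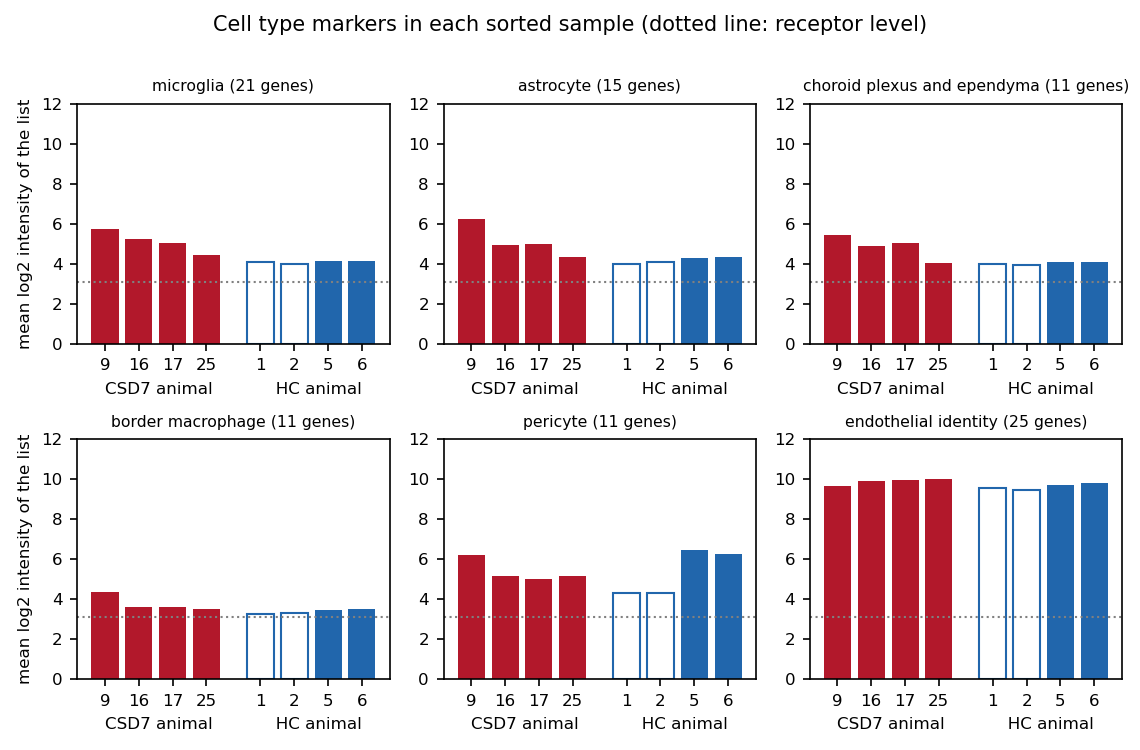
Mean log2 intensity (vertical axis) of 6 marker lists in each CSD7 animal (red) and each HC animal (blue; HC 1 and 2 open), with the receptor level of 3.10 dotted. Microglial means of CSD7 animals lie between 4.46 (animal 25) and 5.76 (animal 9), above all HC animals, pericyte means are highest in HC animals 5 and 6 (6.47 and 6.27) and CSD7 animal 9 (6.20), and endothelial means stay between 9.46 and 10.00.

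Genes of lipid handling rose in good part, beside 19.2% of rows above the receptor level called higher. Ch25h, the enzyme that makes 25-hydroxycholesterol, had the largest difference of any named gene whose groups did not overlap: 7.44, 7.07, 7.25 and 6.94 in CSD7, against 4.02, 4.47, 5.30 and 5.43 in HC (2.37 ± 0.58, adjusted p = 0.024, and 1.81 against HC animals 5 and 6). The CSD7 animals lay close together, animal 9 included, and the lowest stood well above the highest HC animal. Of 12 genes of oxysterol and LXR signalling 9 rose, with a median of 0.60, and of 0.29 against HC animals 5 and 6. Npc1, which exports cholesterol from lysosomes, had 6.16, 5.95, 6.17 and 6.17 in CSD7 and 4.96, 4.97, 5.60 and 5.66 in HC (0.82 ± 0.14, adjusted p = 0.015, and 0.48 against HC animals 5 and 6). It was still called under repeated quantile normalization, with a difference of 0.40. Abca1 and Abcg1, the cholesterol exporters that LXR induces, differed by 0.81 and 0.72 from all HC and by 0.45 and 0.34 from HC animals 5 and 6.

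Of 26 genes of sterol and fatty acid synthesis 17 rose, with a median of 0.52, and of 0.24 without HC animals 1 and 2. Fads1 and Scd1, desaturases, differed by 1.09 and 1.00 and were highest in animal 9. Srebf2, the master regulator of cholesterol synthesis, had 6.83, 6.76, 6.64 and 6.67 in CSD7 and 5.63, 5.61, 6.40 and 6.38 in HC (0.72, and 0.33 against HC animals 5 and 6), the larger part of its distance coming from HC animals 1 and 2. Of 27 genes of fatty acid uptake and oxidation 16 rose, with a median of 0.43 and of 0.22 against HC animals 5 and 6. Beside Angptl4 and Pdk4 these included Cpt2, which brings acyl groups into the mitochondrial matrix (6.44, 6.50, 6.92 and 6.74 in CSD7, against 5.31, 4.88, 6.04 and 6.20 in HC), and the lipases Lipe and Pnpla2 (0.73 and 0.49). Cd36, a fatty acid receptor, Fabp4, a fatty acid binding protein, and the nuclear receptor gene Pparg differed by 0.05, -0.15 and -0.02 and were not called.

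Of 29 lysosome genes 25 rose, with a median of 0.57, and of 0.31 against HC animals 5 and 6, where 17 had an unadjusted p under 0.05. At that p 3177 of the 30259 rows above the receptor level, fitted alone, were higher. In 23 of the 29 every CSD7 animal was above every HC animal. These counts stand beside 9.04% of all rows called higher (19.2% above the receptor level) and 7.47% with every CSD7 animal above, and 0 of 29 were called without HC animal 1 or without HC animal 2 (medians 0.47 and 0.50). Ctss and Cd68, which microglia also express, had the largest differences (1.92 and 1.15, Cd68 not called). Genes that most cells use were higher as well and even among the CSD7 animals: Tpp1, a lysosomal peptidase, had 8.50, 8.61, 8.68 and 8.64 in CSD7 and 7.79, 7.83, 8.17 and 8.20 in HC (0.61 ± 0.10, adjusted p = 0.015, and 0.42 against HC animals 5 and 6). Psap, the precursor of saposins, had 9.71, 9.62, 9.63 and 9.49 in CSD7 and 8.92, 8.77, 9.02 and 9.14 in HC (0.65 ± 0.10, adjusted p = 0.015). Npc1, Tpp1 and Psap were the 3 list members that kept their call under repeated quantile normalization. Tfeb, the transcription factor that governs these genes, differed by 0.35 (called) and by 0.09 against HC animals 5 and 6.

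Genes of energy metabolism, all of them above the receptor level, rose in numbers above the 19.2% of such rows called higher (9.04% of all rows). Of 26 genes of the citric acid cycle 22 rose, with a median of 0.57, and of 0.24 against HC animals 5 and 6, where 15 had an unadjusted p under 0.05. At that p 3177 of the 30259 rows above the receptor level, fitted alone, were higher. Cs, citrate synthase, stood out: 8.08, 8.01, 8.06 and 7.96 in CSD7 and 7.06, 7.10, 7.28 and 7.46 in HC, a difference of 0.80 ± 0.11 (adjusted p = 0.015) and of 0.66 against HC animals 5 and 6. The 4 CSD7 animals were almost level. Pdhb, a subunit of pyruvate dehydrogenase, and Idh3a differed by 0.81 and 0.70, and by 0.43 and 0.31 against HC animals 5 and 6.

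Of 15 glycolysis genes 14 rose, with a median of 0.54, and of 0.38 against HC animals 5 and 6. Pgk1, phosphoglycerate kinase, had 8.54, 7.98, 7.90 and 7.80 in CSD7 and 6.90, 7.09, 7.41 and 7.53 in HC (0.82 ± 0.19, adjusted p = 0.021). Ldhb, the lactate dehydrogenase subunit of oxidative cells, had the largest difference (1.05), with 6.75 in animal 9 and 5.50, 5.38 and 4.82 in animals 16, 17 and 25, against 4.11 to 5.09 in HC. Pfkfb3, which sets the pace of endothelial glycolysis, had 5.85, 6.09, 6.24 and 6.38 in CSD7 and 5.09, 5.14, 5.59 and 5.74 in HC (0.75 ± 0.15, adjusted p = 0.016). In Pfkfb3 animal 9 was the lowest CSD7 animal, unlike in Pgk1 and Ldhb. Slc16a1, the lactate carrier MCT1 of the barrier, was not called (0.19).

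Oxidative phosphorylation showed how far a result can rest on HC animals 1 and 2. Of 51 subunit genes 17 rose, with a median of 0.41, but against HC animals 5 and 6 the median was 0.12. There 8 of the 51 had an unadjusted p under 0.05, beside 3177 of the 30259 rows above the receptor level, fitted alone. Under repeated quantile normalization the median was 0.01. Ndufa8, a subunit of complex I, had 7.69, 8.05, 7.80 and 7.69 in CSD7, against 6.45 and 6.42 in HC animals 1 and 2 and 7.39 and 7.51 in HC animals 5 and 6. Cox6a1, a subunit of cytochrome c oxidase, kept more of its difference: 10.04, 10.16, 9.84 and 9.69 in CSD7 and 9.15, 9.33, 9.44 and 9.52 in HC (0.57, and 0.45 against HC animals 5 and 6).

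Redox genes were mixed. Of 27 genes of redox defence 14 rose, with a median of 0.45, and of 0.19 against HC animals 5 and 6. Hmox1, heme oxygenase, had 5.11, 4.73, 4.73 and 4.62 in CSD7 and 3.83, 3.99, 4.22 and 4.44 in HC (0.68 ± 0.12, adjusted p = 0.015, and 0.47 against HC animals 5 and 6). Gclc, the limiting enzyme of glutathione synthesis, differed by 0.78 from all HC and by 0.18 from HC animals 5 and 6, and Sod2 and Srxn1 were not called. Of 17 genes that produce reactive oxygen or nitric oxide 4 rose (Nos1, Pts, Xdh and Ncf1). Among all rows 9.04% were called higher, and 19.2% of those above the receptor level. Xdh, xanthine oxidoreductase, had 9.59, 9.46, 10.13 and 9.72 in CSD7 and 9.00, 9.10, 8.98 and 9.11 in HC, a difference of 0.68 ± 0.14 (adjusted p = 0.017) that was also 0.68 against HC animals 5 and 6. Nos3, the endothelial nitric oxide synthase, differed by 0.40 and was not called.

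Hemostasis genes had 12 of 30 called, all higher, beside 19.2% of rows above the receptor level. Their median was 0.39, and 0.14 against HC animals 5 and 6. Vwf, the glycoprotein that tethers platelets, had 8.60, 8.59, 8.73 and 9.11 in CSD7 and 7.32, 7.31, 7.97 and 8.21 in HC (1.05 ± 0.23, adjusted p = 0.018, and 0.66 against HC animals 5 and 6). P2ry1, a receptor for ADP, had 5.78, 5.75, 6.06 and 6.22 in CSD7 and 4.36, 3.99, 5.31 and 5.29 in HC (1.21 ± 0.26, adjusted p = 0.018, and 0.65). Both groups were apart in these genes whichever HC animals were used, though HC animals 5 and 6 lay between the others. Thbs1, thrombospondin 1, differed by 0.99, Fermt3, an integrin activator, by 0.71, Plat, tissue plasminogen activator, by 0.63 and Anxa2, the annexin that gathers plasminogen, by 0.62, and by 0.70, 0.46, 0.59 and 0.44 against HC animals 5 and 6. Thbd and Tfpi, which restrain clotting, were not called (0.30 and 0.20).

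Vasomotor genes had 11 of 18 called, all higher, beside 19.2% of rows above the receptor level. Their median was 0.50, and 0.32 against HC animals 5 and 6. Adm, adrenomedullin, had 6.16, 6.48, 6.90 and 5.64 in CSD7 and 4.67, 4.44, 5.51 and 5.00 in HC (1.39 ± 0.37, adjusted p = 0.030). Ace, angiotensin converting enzyme, had 7.76, 7.60, 8.04 and 7.98 in CSD7 and 6.48, 6.09, 6.80 and 7.02 in HC (1.24 ± 0.31, adjusted p = 0.025, and 0.93 against HC animals 5 and 6). Edn1, the vasoconstrictor endothelin, had 9.12, 9.02, 9.49 and 9.11 in CSD7 and 8.34, 7.82, 8.10 and 8.35 in HC (1.03 ± 0.23, adjusted p = 0.019, and 0.96). The groups did not overlap in any of the 3. Piezo1, a mechanosensitive channel, differed by 0.64 and by 0.31 against HC animals 5 and 6.

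**Figure D4:**
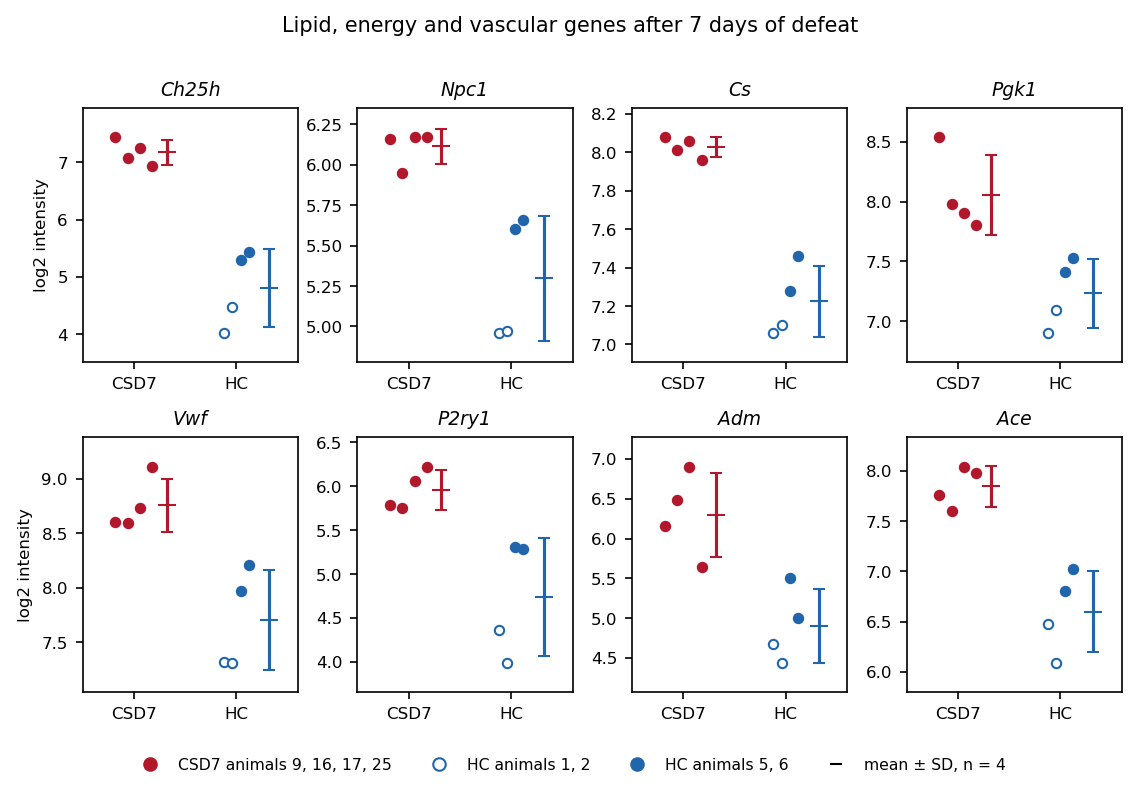
Log2 intensity (vertical axes, each with its own range) of Ch25h, Npc1, Cs, Pgk1, Vwf, P2ry1, Adm and Ace in CSD7 (red) and HC animals (blue; HC 1 and 2 open), 1 point per animal, with mean ± SD of 4 animals. CSD7 points lie above all HC points in each panel, and the open points of HC animals 1 and 2 lie below the filled ones in each (Npc1: 4.96 and 4.97, against 5.60 and 5.66 in HC animals 5 and 6).

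Of 20 arterial genes 10 rose, with a median of 0.56, and of 0.27 against HC animals 5 and 6. Arterial and venous counts stand beside 19.2% of rows above the receptor level called higher. Stmn2 had 8.30, 8.96, 8.32 and 8.24 in CSD7 and 6.73, 6.94, 7.29 and 7.60 in HC (1.31 ± 0.21, adjusted p = 0.015, and 1.01). Fbln5 and Mgp, matrix proteins of arteries, differed by 1.24 and 1.08, and by 0.98 and 0.93 against HC animals 5 and 6. Clu, clusterin, which astrocytes also express, differed by 1.39. Gkn3, a marker of arterioles, had 7.37, 8.09, 8.07 and 8.60 in CSD7 and 7.77, 7.20, 7.87 and 7.94 in HC and was not called. Of 16 venous genes 6 rose, with a median of 0.56, and of 0.24 against HC animals 5 and 6, led by Il1r1, the interleukin 1 receptor (8.40, 7.54, 8.64 and 8.94 in CSD7, against 6.10, 6.42, 7.41 and 8.01 in HC), in which CSD7 animal 16 lay below HC animal 6. Vcam1 and Icam1, adhesion molecules for leukocytes, differed by 0.93 and 0.72 from all HC but by 0.33 and 0.09 from HC animals 5 and 6, and were not called. Sele and Selp stayed under the receptor level, but for Sele in HC animal 2 (3.14).

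Angiogenesis genes had 9 of 32 called, all higher, with a median of 0.35, and of 0.13 against HC animals 5 and 6. Besides Adm these were mostly small: Fgfr1 0.62, Vegfb 0.53, Flt4 0.49, Pdgfb 0.45 and Eng 0.41. Of 22 junction genes 4 rose (Pard3, Ctnnd1, Ctnna1 and F11r), with a median of 0.27, and of 0.13 against HC animals 5 and 6, while the sealing proteins Ocln, Tjp1, Jam2, Cdh5 and Esam differed by 0.21, 0.18, 0.26, 0.26 and 0.11 and were not called. Of 26 nutrient and hormone carriers 10 rose, with a median of 0.31, among them the taurine carrier Slc6a6 (0.56, and 0.48 against HC animals 5 and 6) and Trf, transferrin (1.16 and 0.82). These counts stand beside the 19.2% of all rows above the receptor level that were called higher. Heat shock genes had 10 of 14 called, with a median of 0.54, and of 0.32 against HC animals 5 and 6. Hspa1a, the inducible HSP70, had 9.85, 9.90, 8.55 and 9.13 in CSD7 and 8.25, 8.80, 8.04 and 8.25 in HC (1.02 ± 0.31, adjusted p = 0.044), so CSD7 animal 17 lay within HC. Without CSD7 animal 9, 2 of the 14 were called.

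**Figure D5:**
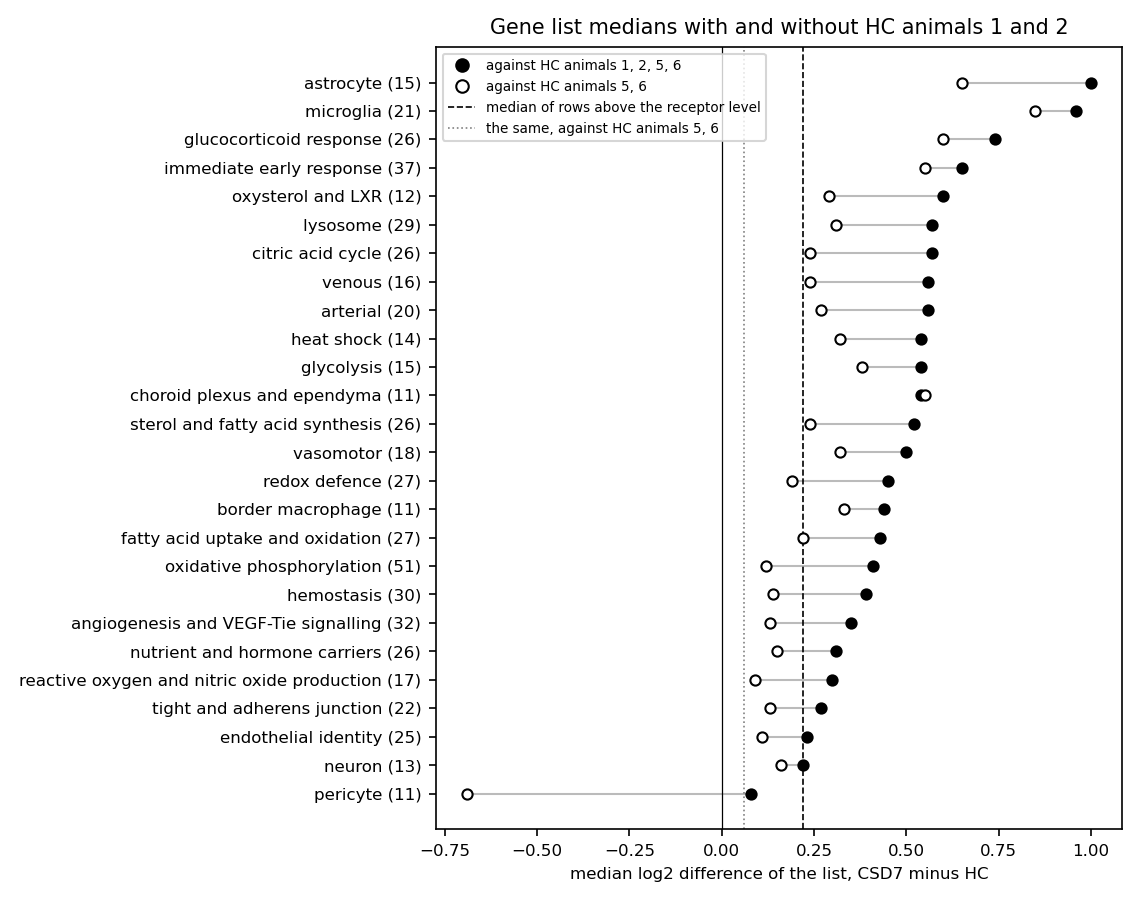
Median log2 difference of CSD7 from HC (horizontal axis) of 26 gene lists, with their number of measured genes, against all 4 HC animals (filled) and against HC animals 5 and 6 (open), beside the medians of rows above the receptor level (0.22 dashed, 0.06 dotted). Microglia, astrocyte, and choroid plexus and ependyma keep medians of 0.85, 0.65 and 0.55 against HC animals 5 and 6. Glucocorticoid response and immediate early response keep 0.60 and 0.55. The pericyte median is 0.08 against all HC animals and -0.69 against HC animals 5 and 6.

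The falls lay at low intensities. Of 1290 rows called lower 45 lay above the receptor level, which is 0.149% of the 30259 rows there. The largest falls among named genes without overlap were Olfr872, Igkv14-111, Olfr263, Olfr338, Cenpw, Vmn2r68, Olfr1136, Sult2a3, Olfr127 and Olfr578, with differences of -0.65 to -0.49, mostly odorant and pheromone receptors. Olfr872 had 2.08, 2.09, 2.21 and 2.34 in CSD7, against 2.98 and 3.49 in HC animals 1 and 2 and 2.46 and 2.39 in HC animals 5 and 6. Igkv14-111, an immunoglobulin segment, had 2.37, 2.38, 2.27 and 2.37 in CSD7, against 3.47 and 3.38 in HC animals 1 and 2 and 2.53 and 2.49 in HC animals 5 and 6. HC animals 1 and 2 set these differences apart, and the receptor rows as a whole had a median of -0.12, and of -0.03 against HC animals 5 and 6. Chosen by the difference from HC animals 5 and 6, the falls were Hcar2, Olfr338, Olfr1263, Sval1, Olfr924, Olfr1066, Olfr926, Samt4, Cldn34b1 and Olfr1189, none beyond -0.35. Hcar2, a receptor for ketone bodies and niacin, had 2.98, 2.94, 3.26 and 3.10 in CSD7 and 3.43, 3.43, 3.46 and 3.38 in HC (-0.35 ± 0.11, adjusted p = 0.042), and here HC animals 1 and 2 were level with HC animals 5 and 6.

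Against HC animals 5 and 6 alone, 4 rows passed the threshold, 3 higher (0.00455% of rows) and 1 lower (0.00152%). The higher ones were Dusp1, Abhd4 and the predicted gene Gm4795. Abhd4, a lipase that acts on N-acyl phospholipids, had 7.67, 7.76, 7.71 and 7.61 in CSD7 and 6.74, 6.93, 7.12 and 7.26 in HC, with a difference of 0.50 (adjusted p = 0.040) from HC animals 5 and 6 and of 0.68 ± 0.09 (adjusted p = 0.013) from all HC. Gm4795 had 5.17, 5.16, 4.93 and 4.92 in CSD7 and 4.76, 4.66, 4.37 and 4.37 in HC, 0.68 from HC animals 5 and 6 (adjusted p = 0.040). The lower one was Aspn, asporin, a matrix proteoglycan, with 3.08, 2.50, 2.42 and 2.43 in CSD7, against 2.73 and 2.64 in HC animals 1 and 2 and 3.83 and 3.71 in HC animals 5 and 6 (-1.17, adjusted p = 0.040, and -0.62 with all HC, not called). Aspn was highest in HC animals 5 and 6, as the pericyte list mean was, and among CSD7 animals highest in animal 9. At an unadjusted p under 0.05 there were 3968 rows higher and 2162 lower.

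Without CSD7 animal 9, 4 rows were higher and 12 lower than in HC animals 5 and 6. The lower ones, chosen here after their values were seen, included Rgs4, an inhibitor of G protein signalling (-1.73, adjusted p = 0.015), Kcnj8 (-1.50, adjusted p = 0.046), Gucy1b1, a subunit of the nitric oxide receptor guanylate cyclase (-1.44, adjusted p = 0.015), Casq2 (-1.14, adjusted p = 0.018), Arhgap42 (-0.93, adjusted p = 0.0037) and Aspn (-1.33, adjusted p = 0.00036). Kcnj8 and Gucy1b1 are genes of mural cells. In Gucy1b1 the CSD7 values were 5.91, 4.38, 4.44 and 4.65. HC animals 1 and 2 had 4.03 and 3.73, and HC animals 5 and 6 had 5.99 and 5.87. The direction thus depended on the pair of HC animals used, and animal 9 lay level with HC animals 5 and 6.

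CSD7 was then set against the mean of the other defeated groups, which leaves HC out of the difference. The HC arrays, HC animals 1 and 2 among them, still entered the shared estimate of the spread behind these p-values. At an adjusted p under 0.05 there were 0 rows higher and 0 lower (limma, Benjamini-Hochberg; 473 higher and 429 lower at an unadjusted p under 0.05, 0.717% and 0.65%). The lowest p was that of Ccn2, with a mean of 7.97 in CSD7 and of 7.40 in the other defeated groups (0.57 ± 0.13, unadjusted p = 0.00031, adjusted p = 1). The other 9 rows with the lowest p differed by -0.39 to 0.35, and 2 of them carry a name, Gm26627 and Ighv1-77. The immediate early list as a whole had a median difference of 0.02 from the other defeated groups and the glucocorticoid list one of 0.18, with Mt1 (0.43, unadjusted p = 0.0046) and Mt2 (0.55, unadjusted p = 0.015) above. A p that misses the threshold does not show that the defeated groups were alike.

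Of the genes that the study discusses for these arrays, the chemokine genes Ccl2, Ccl12, Ccl24 and Cxcl2 differed by 0.09, 0.04, 0.22 and 0.24, none called. Ccl12 (2.46 to 2.60) and Cxcl2 (2.71 to 3.06) lay under the receptor level of 3.10 in every HC animal. Ccl24 lay on both sides of it (2.98 to 3.42), and Ccl2 lay a little above it. Ccl2 had 3.94, 3.50, 3.42 and 3.36 in CSD7 and 3.42, 3.47, 3.40 and 3.57 in HC, with animal 9 the highest again. Cd3e, a T cell gene, had 3.13, 3.16, 3.11 and 2.97 in CSD7 and 2.85, 2.84, 3.06 and 3.09 in HC. Acta2, smooth muscle actin, had 8.17 in CSD7 animal 9 and 6.37, 6.01 and 5.51 in animals 16, 17 and 25, against 4.76 and 4.68 in HC animals 1 and 2 and 5.59 and 6.03 in HC animals 5 and 6 (1.25 ± 0.45, adjusted p = 0.073).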

How the data were processed

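RNA of sorted CD31+ brain cells was hybridized to Affymetrix Clariom D mouse arrays, 1 brain per array. The values are log2 intensities that the authors made and deposited: per the methods by RMA background correction, quantile normalization and median polish in Partek Genomics Suite, while the labels name Affymetrix Expression Console with RMA and another array type. Which genome build the array was designed on is not stated in the sources used here. Depth does not apply to arrays, and their number limits the precision.

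Of 72688 deposited rows 6732 control rows were left out and 65956 kept. A row was named where the platform annotation gave it 1 gene symbol (30646 rows, with 2168 holding several and 33142 none), updated through RefSeq identifiers where they matched (22603 rows). Of 1027 listed genes 922 had a row of their own, and 1633 rows hold the same values as another row on all arrays.

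Linear models (lmFit and eBayes of limma 3.58.1 in R 4.3.3, with package data.table, version 1.17.8, to read the values) were fitted to all 19 arrays with 1 mean for each of the 5 groups, and to 17 arrays for the comparison with HC animals 5 and 6. Tests were two-sided, p-values were adjusted over all 65956 rows by Benjamini-Hochberg, and a row was called at an adjusted p under 0.05. "Rose" and "fell" refer to called rows only. Differences are CSD7 minus HC. Arrays stand for separate mice, and the p-values measure the spread between them. The code for the models was tested on simulated data. Promoters and motifs were read with Python 3.11.15 and figures drawn with matplotlib 3.10.9.

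The members and gene lists were chosen with earlier results of these data known. Named genes were the 10 largest differences in each direction among called rows whose groups did not overlap, the same by the difference from HC animals 5 and 6, every row called against those, genes discussed by the study, leading members of each list, and the 10 lowest p-values against the other defeated groups. Further list members were named after their values were seen. Alternatives were a fit of the 2 groups alone, repeated quantile normalization, centring, an intensity filter, an intensity trend, no moderation, array weights and leaving out each animal. Leaving out HC animals 1 and 2 was added for all results after the data were seen.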

Additional observations from a re-analysis of the deposited data

Results flagged for a closer look

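Within each group of 4 animals, the highest or lowest animal was set against the others for 334 values of named genes and list means. In 27 of them 1 animal lay so far out that its gap to the nearest other animal took up most of the range of its group, 23 in CSD7 and 4 in HC. Chance flags about 1 in 20 such groups, and genes of 1 cell type are not independent of each other.

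Most concerned CSD7 animal 9. It lay apart upwards mostly in genes and means of mural, glial, neuronal and myeloid cells. The gap as a share of the group's range was 0.88 for Aspn, 0.84 for Kcnj8, 0.97 for Ednrb and 0.84 for Mrc1. It was 0.93 for Ccl24, 0.86 for Cxcl2, 0.88 for Snap25, 0.91 for Syt1 and 0.83 for Fgfr1. The odorant receptor row Olfr1066 had a share of 0.93 by a small gap, 2.32 against 2.21 to 2.22, under the receptor level. Animal 9 was also apart upwards in the means of the border macrophage list (0.84) and the pericyte list (0.86). The citric acid cycle mean had a share of 0.99, again by a small gap (6.56 against 6.48). In endothelial genes animal 9 lay apart downwards, with 0.83 for Eng, 0.90 for Robo4 and 0.85 for Tie1. In Ednrb, the endothelin B receptor, it had 7.11, against 5.71, 5.75 and 5.74 in the other CSD7 animals.

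Other CSD7 animals lay apart in single values. Animal 16 was low for Npc1 (0.96) and high for Stmn2 (0.88). Animal 17 was low for Igkv14-111 (0.88) and Olfr1136 (0.91). Animal 25 was low for Ttr (0.85) and high for Olfr127 (0.83) and for the mean of the venous list (0.95). Among HC animals, animal 5 was high for C1qb (0.91) and Snap25 (0.85), and animal 2 was low for Cxcl2 (0.85) and Mgp (0.87).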

How the results depend on the processing

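The number of rows called in CSD7 against HC, 5964 higher and 1290 lower, changed with most settings. It was 0 and 0 in a fit of the 2 groups alone, 96 and 52 with repeated quantile normalization (64.9% higher, against 82.2%), 2150 and 20959 when arrays were centred on rows above the receptor level (9.3% higher), 3146 and 596 without moderation, 494 and 85 with array weights, and 7583 and 81 among rows above the receptor level (98.9% higher). With an intensity trend it was 4753 and 1464. Leaving out 1 animal at a time gave 0 to 12778 higher and 0 to 5700 lower. Of the 5964 higher rows, 94 were also called after quantile normalization and 5645 kept their sign. Against HC animals 5 and 6, the 3 higher and 1 lower became 0 and 0 with quantile normalization, with an intensity trend and without moderation, 0 and 1 with centring, 3 and 0 among rows above the receptor level and 18 and 7 with array weights, and leaving out 1 animal gave 0 to 12 of each. Against the other defeated groups it stayed at 0 under each setting tried. The cause of these changes was not tested.

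Of 141 named genes, 114 were called in CSD7 against HC and so could lose a call. All 114 lost it in the fit of 2 groups and without HC animal 2. Of the 114, 110 lost it with quantile normalization, 109 without HC animal 1 and 88 with array weights. Signs turned as follows. With array weights Cspg4 was -0.27, Notch3 -0.55, Rgs5 -0.59 and the pericyte median -0.71. With centring Bsg was -0.05, Ccl12 -0.22, Ccl2 -0.17, Ccl24 -0.05, Cd3e -0.13, Cspg4 -0.10, Cxcl2 -0.02, Kdr -0.08, Notch3 -0.04, Pltp -0.08, Rgs5 -0.12, Tek -0.04, the pericyte median -0.18 and the neuronal and endothelial medians -0.04. With quantile normalization Ccl2 was -0.00, Notch3 -0.07, Rgs5 -0.09 and the pericyte median -0.21. Without HC animals 1 and 2 Cspg4 was -0.30, Notch3 -0.54, Rgs5 -0.67 and the pericyte median -0.69. Leaving out 1 animal at a time gave -0.80 to 0.35 for Atp13a5, -0.49 to 0.28 for Kcnj8, -0.14 to 0.44 for Rgs5, -0.05 to 0.53 for Notch3, -0.01 to 0.34 for Cspg4, -0.09 to 0.11 for Ccl12, -0.04 to 0.16 for Ccl2, -0.05 to 0.59 for Syt1 and -0.32 to 0.35 for the pericyte median, the signs turning without HC animal 1, 2, 5 or 6 or CSD7 animal 9, 17 or 25. None of these genes was called in CSD7 against HC.

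No paired analysis was possible because the CSD7 and HC animals share no replicate number. Per the methods each collection day held samples of several conditions. The day of each animal is not in the labels used here, so no fit with day as a block was run.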

Other observations

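Lists not described above held further members that rose in CSD7 against HC. Their counts stand beside 9.04% of all rows called higher (19.2% of rows above the receptor level). Of 17 genes of caveolae and transcytosis 10 rose, with a median of 0.40, and of 0.24 against HC animals 5 and 6. Cavin2, a coat protein of caveolae, had 8.90, 9.29, 9.63 and 9.38 in CSD7 and 8.57, 8.59, 8.69 and 8.78 in HC (0.64, adjusted p = 0.023). Cav1 differed by 0.25 and Mfsd2a, the lipid carrier that restrains transcytosis, by 0.10. Of 19 hypoxia genes 10 rose, with medians of 0.50 and 0.31, among them Ndrg1, with 9.93, 9.98, 10.32 and 10.21 in CSD7 and 9.70, 9.44, 9.50 and 9.69 in HC (0.53, and 0.51 against HC animals 5 and 6).

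Interferon and MHC class I genes moved little: 3 of 30 rose (Tap2, Irf9 and Rsad2), with a median of 0.28, and of 0.04 against HC animals 5 and 6. Proteasome genes had 8 of 30 called and a median of 0.37, and of 0.05 against HC animals 5 and 6. Of 17 clock genes 3 rose (Per1, Cry2 and Bhlhe41). The interferon, proteasome and clock counts are to be read beside the 19.2% of rows above the receptor level that were called higher. Clock, Per3 and Nr1d1 differed by 0.45, 0.35 and 0.16 from all HC and by -0.01, -0.06 and -0.22 from HC animals 5 and 6. Cd99l2, which helps leukocytes cross endothelium, was the 1 of 17 leukocyte adhesion genes called, with 6.54, 6.73, 6.78 and 6.68 in CSD7 and 5.77, 5.70, 6.07 and 6.29 in HC (0.73, adjusted p = 0.015, and 0.51 against HC animals 5 and 6).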
